A study of Mus musculus with 9 samples.

Results

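The 41 genes described here lie on distal mouse chromosome 1, on both sides of Fcgr2b, the gene targeted in FcγRIIB-/- mice. They were listed by name as neighbours within 10 Mb of Fcgr2b with no known role of their own in blood cells, and all 41 were present among the 27179 genes of the count table. They span chr1:166379167-172374085 of mm10, with 19 genes on the centromeric side of Fcgr2b and 22 on the telomeric side. Of the 41, 39 had enough reads to be tested with 16329 genes in all. The remaining genes, Nhlh1 and Kcnj9, were too low to be tested.

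Poly(A) RNA was sequenced from whole mandibles, teeth included, of 5 WT mice and of 4 that carry the label FcγRIIB-/-. The mice were males, 6 months of age, and both groups carry the strain label C57BL/6. The study used FcγRIIB-/- mice, a germline knockout of the inhibitory Fc receptor for IgG, as a model of lupus, and obtained the line on a C57BL/6 background. The study calls the controls of its blood analysis littermates, and does not say so of the WT mice sequenced here.

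Genes are targeted in embryonic stem cells, and the targeted allele is then moved onto another strain by repeated crosses. Neighbouring genes travel with the selected allele, so a stretch of chromosome from the stem cell donor can remain around it, and genes in such a stretch can differ in expression because their own sequence differs. The flanking genes were therefore compared between the groups as neighbours of the targeted locus. Counts per gene hold no sequence, and the strain of origin of this stretch in these mice was not tested.

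The targeted gene was examined first. Fcgr2b was at 20.9, 38.3, 17.0, 23.1 and 20.7 CPM, the count scaled to the size of its library, in WT, and at 26.5, 26.0, 26.6 and 32.1 CPM under the FcγRIIB-/- label. Here and below, values by library follow the order of replicates 1 to 5 for WT and 1 to 4 for the labelled group. The groups overlapped, and the log2 fold change was 0.21 with a standard error (SE) of 0.20 (edgeR adjusted p = 0.442). Without WT replicate 2, the highest library, it was 0.46 (adjusted p = 0.0131). The reads of Fcgr2b were not lower under the FcγRIIB-/- label, and a count over the whole gene does not show which of its exons they cover. Every direction below is given between libraries as they are labelled. Fold changes are always for the libraries labelled FcγRIIB-/- over WT.

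The libraries held 24158960 to 26787359 counts in WT and 21453880 to 28991631 counts under the FcγRIIB-/- label. Osteoblast and osteocyte markers, which check the labelled tissue, were abundant in all 9 libraries. Other cell types moved with the label. All 12 myeloid markers were lower, with a summed level of 1379 to 3883 CPM in WT and 197 to 535 CPM under the FcγRIIB-/- label, and all 9 tested erythroid markers were lower, from 1869 to 2223 CPM in WT to 115 to 498 CPM. Skeletal muscle markers summed to 9006 to 21101 CPM in WT and 22137 to 38422 CPM under the label, with 7 of 12 higher, and tooth matrix genes summed to 12057 to 31140 CPM and 34198 to 57243 CPM, with 4 of 7 higher. In such bulk tissue, fewer cells of a type and less RNA per cell cannot be told apart.

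Among the 39 tested flanking genes, 11 were higher and 12 were lower under the FcγRIIB-/- label (adjusted p under 0.05), together 59.0%. Over all tested genes the same test called 33.3%, with 14.0% higher and 19.3% lower. The list of flanking genes was made by hand, with earlier results of these data known. Of 112 other tested genes within 10 Mb that were off a hand-made list of immune and blood cell genes, 39.3% were called. That list was not complete, and genes such as F5 and Fcrl6 stayed among the 112. The changes of the flanking genes were mostly small. The median absolute log2 fold change of the flanking genes was 0.34, against 0.24 over all tested genes, and their median log2 fold change was 0.00. A limit of 0.5 on the absolute log2 fold change left 10 of the 39 genes, 3 higher and 7 lower, where 17.4% of all genes passed both limits. CPM values of the groups did not overlap in 22 of the 39 flanking genes, or 56.4%, and in 29.6% of all tested genes. Among more highly expressed genes the shares were close to these: 20 of the 33 flanking genes whose average log2 CPM was 3 or more were called, or 60.6%, where 35.8% of all genes at that level were. DESeq2, which was given all 41 flanking genes, called 26 of them, where it called 32.9% of the genes it gave an adjusted p. These were the 23 edgeR calls with Mgst3, Uck2 and Kcnj9, and Kcnj9 is not among the 39. Of the 23 edgeR calls, 15 held in each of the 9 fits that left out 1 library, 6 higher and 9 lower. Scaling by total counts alone, with no TMM step, gave 18 calls, of which 4 were higher and 14 lower, where it called 31.2% of all genes, 1309 higher and 3781 lower. Under that scaling 7 of the 23 calls were lost, all of them rises, and Atf6 and Uap1 were called lower.

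**Figure D1:**
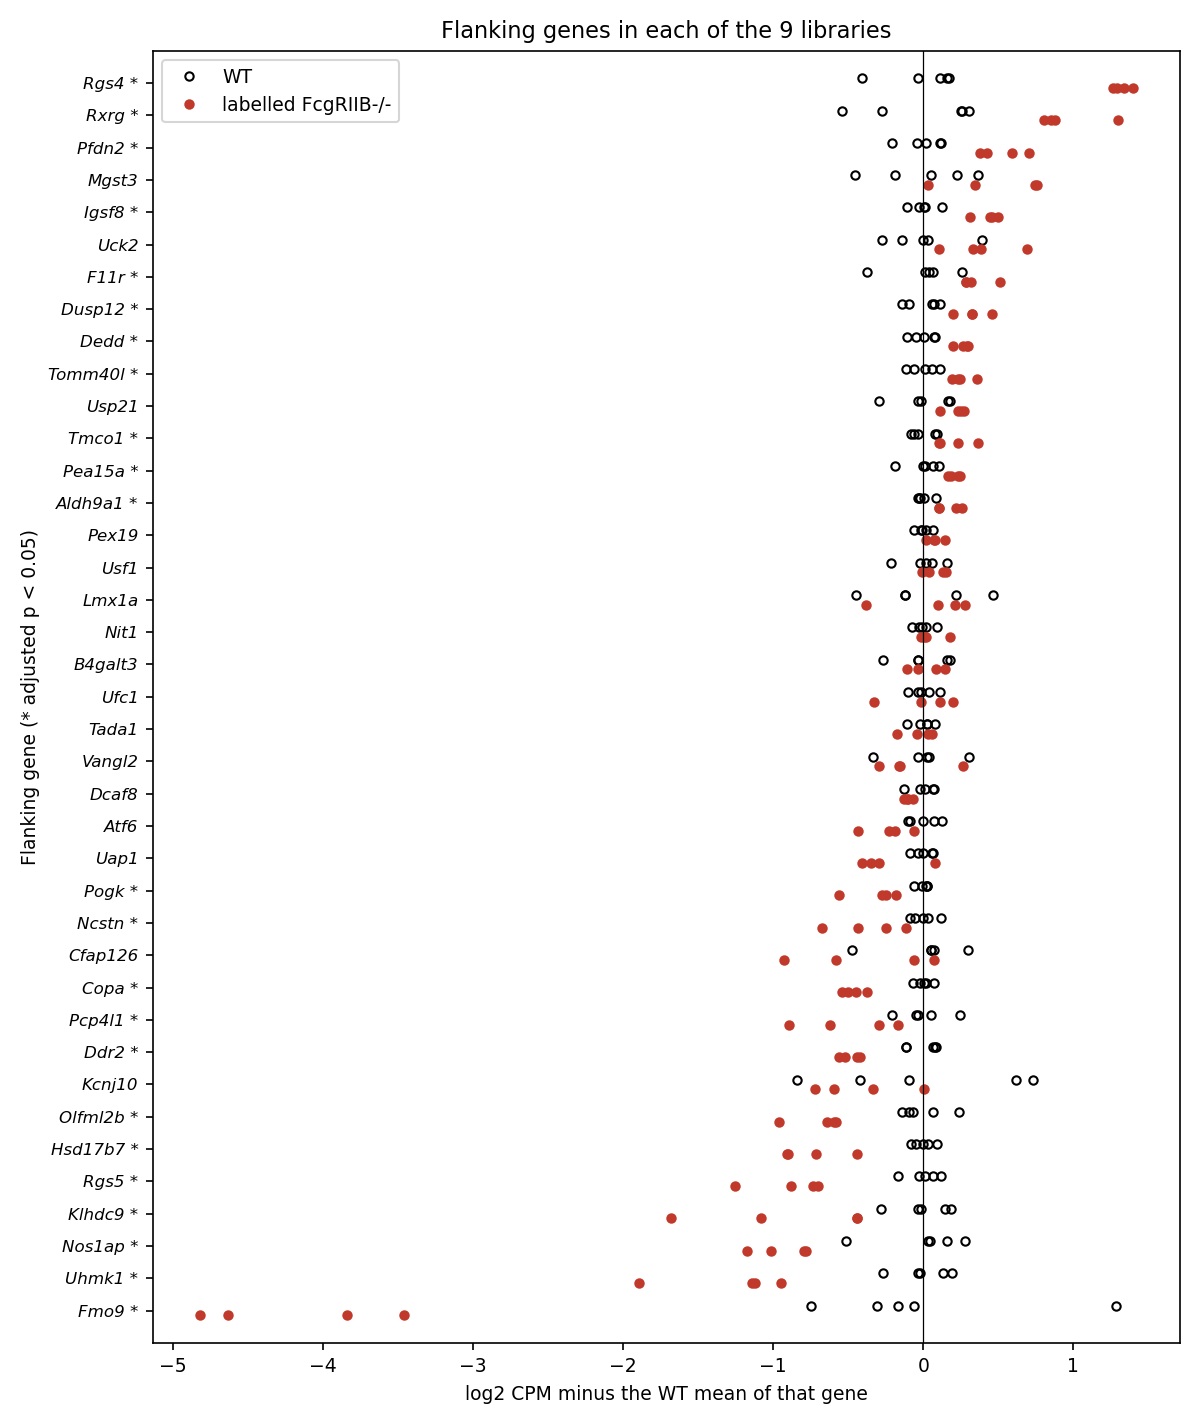
Each of the 39 tested flanking genes (vertical axis) in every library, as log2 CPM minus the WT mean of that gene, with open points for the 5 WT mice and filled points for the 4 mice labelled FcγRIIB-/-. Asterisks mark the 23 genes at an adjusted p under 0.05, and Fmo9 stands far to the left of the other genes with a log2 fold change of -4.60, while Rgs4 stands farthest to the right with 1.31.

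All 8 signalling genes in the list passed the test, 4 higher and 4 lower, and none of the 8 overlapped between the groups. Over all tested genes, 33.3% passed and 29.6% did not overlap. Groups by role were made by hand and are small. Rgs4 and Rgs5 are adjacent genes that encode regulators of G protein signalling, proteins that speed GTP hydrolysis by G alpha subunits and so shorten signals from G protein-coupled receptors. Rgs5 is widely used as a marker of pericytes, the mural cells of small vessels.

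Rgs4, at chr1:169741477-169747642, was at 26.8, 31.0, 30.6, 29.7 and 20.6 CPM in WT, and at 67.1, 69.5, 66.0 and 72.4 CPM under the label. Every labelled library was above every WT library. The mean was 27.7 ± 4.31 CPM (SD, n = 5) in WT and 68.8 ± 2.85 CPM (SD, n = 4) under the label, a log2 fold change of 1.31 with an SE of 0.11 (edgeR adjusted p = 8.21e-05). This was the largest rise among the flanking genes.

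Rgs5, the neighbour of Rgs4 at chr1:169655501-169695813, moved the opposite way. It was at 132, 161, 150, 155 and 145 CPM in WT, and at 91.4, 80.8, 89.4 and 62.1 CPM under the label. No labelled library reached the lowest WT library, and the log2 fold change was -0.88 with an SE of 0.11 (edgeR adjusted p = 0.000601). The 10 pericyte and smooth muscle markers summed to 1173 to 1596 CPM in WT and 1464 to 2049 CPM under the label, with 0 higher and 2 lower, and their part in the Rgs5 result was not tested.

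The promoters of Rgs4 and Rgs5 are shown because these neighbours carried the clearest changes in opposite directions. They are the 250 bases before the annotated start in RefSeq on GRCm38.p6, chr1:169747643-169747892 (minus strand) for Rgs4 and chr1:169655251-169655500 (plus strand) for Rgs5, written 5′ to 3′ along the gene. They are letters of the C57BL/6J reference genome and were not read from these mice. Capitals mark matches, on either strand, to the TATA box (TATAAA), the CCAAT box (read as CCAAT), the E-box of Usf1 (CACGTG), the GC box bound by Sp1 (GGGCGG) and the cyclic AMP response element (TGACGTCA). None of these motifs contains another.
Rgs4: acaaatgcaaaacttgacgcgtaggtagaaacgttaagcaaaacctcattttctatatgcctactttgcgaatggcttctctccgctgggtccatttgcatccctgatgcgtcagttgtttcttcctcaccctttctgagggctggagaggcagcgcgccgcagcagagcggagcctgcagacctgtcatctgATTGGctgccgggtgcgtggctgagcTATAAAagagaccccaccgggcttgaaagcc
Rgs5: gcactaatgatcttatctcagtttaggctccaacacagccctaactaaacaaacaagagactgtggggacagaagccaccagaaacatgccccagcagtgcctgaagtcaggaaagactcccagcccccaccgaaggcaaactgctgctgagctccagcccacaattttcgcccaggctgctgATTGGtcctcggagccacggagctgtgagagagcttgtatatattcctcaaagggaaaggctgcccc
Rgs4 has TATAAA at position -31 and CCAAT, on the other strand, at position -57, counted back from the start. Rgs5 has CCAAT at position -67 on the other strand and no TATAAA. Over 27025 RefSeq promoters of this length, 12.97% held TATAAA and 34.46% held CCAAT, against 4 and 19 of the 37 flanking genes with a promoter in the table. These matches describe the letters only.

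Among the other signalling genes, Uhmk1 showed the largest difference. Uhmk1 encodes a serine/threonine kinase that phosphorylates splicing factors. It was at 10.6, 14.6, 12.6, 12.5 and 14.1 CPM in WT, and at 5.85, 6.61, 5.76 and 3.40 CPM under the label. The lowest WT library was above the highest labelled library, and the log2 fold change was -1.25 with an SE of 0.18 (edgeR adjusted p = 0.00106). A stretch of 352 bases of Uhmk1 is 96.0% identical to Gm6345, and reads from it could have been assigned to either gene.

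Nos1ap, an adaptor that binds neuronal nitric oxide synthase, fell from 3.21 ± 0.627 CPM (SD, n = 5) in WT to 1.62 ± 0.217 CPM (SD, n = 4), a log2 fold change of -0.99. Ddr2, a receptor tyrosine kinase for fibrillar collagen that is found in cells of bone and connective tissue, was at 217, 247, 249, 245 and 217 CPM in WT and at 163, 175, 173 and 159 CPM under the label. Its log2 fold change was -0.49 with an SE of 0.07 (edgeR adjusted p = 0.00127). Osteoblast and osteocyte markers summed to 45857 to 66344 CPM in WT and 42435 to 52943 CPM under the label, with 5 of 11 lower, and their part in the Ddr2 result was not tested.

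The remaining signalling genes rose by smaller amounts. Dedd, a death effector domain protein linked to apoptosis signalling, rose from 33.3 ± 1.84 CPM (SD, n = 5) to 40.0 ± 1.22 CPM (SD, n = 4), and Pea15a, a death effector domain protein that binds ERK, rose from 125 ± 9.56 CPM (SD, n = 5) to 144 ± 3.72 CPM (SD, n = 4). Dusp12, a dual specificity phosphatase and the listed gene nearest to Fcgr2b, rose from 12.8 ± 1.0 CPM (SD, n = 5) to 16.1 ± 1.20 CPM (SD, n = 4), a log2 fold change of 0.33 (edgeR adjusted p = 0.0185). Without replicate 1 of the labelled libraries the call of Dusp12 was lost (adjusted p = 0.0546). The call of Pea15a was lost without WT replicate 1, 3 or 4 and without each of the 4 labelled libraries in turn, at adjusted p between 0.0527 and 0.0892. Dedd shares 36.4% of its exonic bases with Nit1 on the other strand, and Dusp12 shares 32.5% with Gm9929, so their reads cannot be told apart unless the counting used strand, which is not stated.

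**Figure D2:**
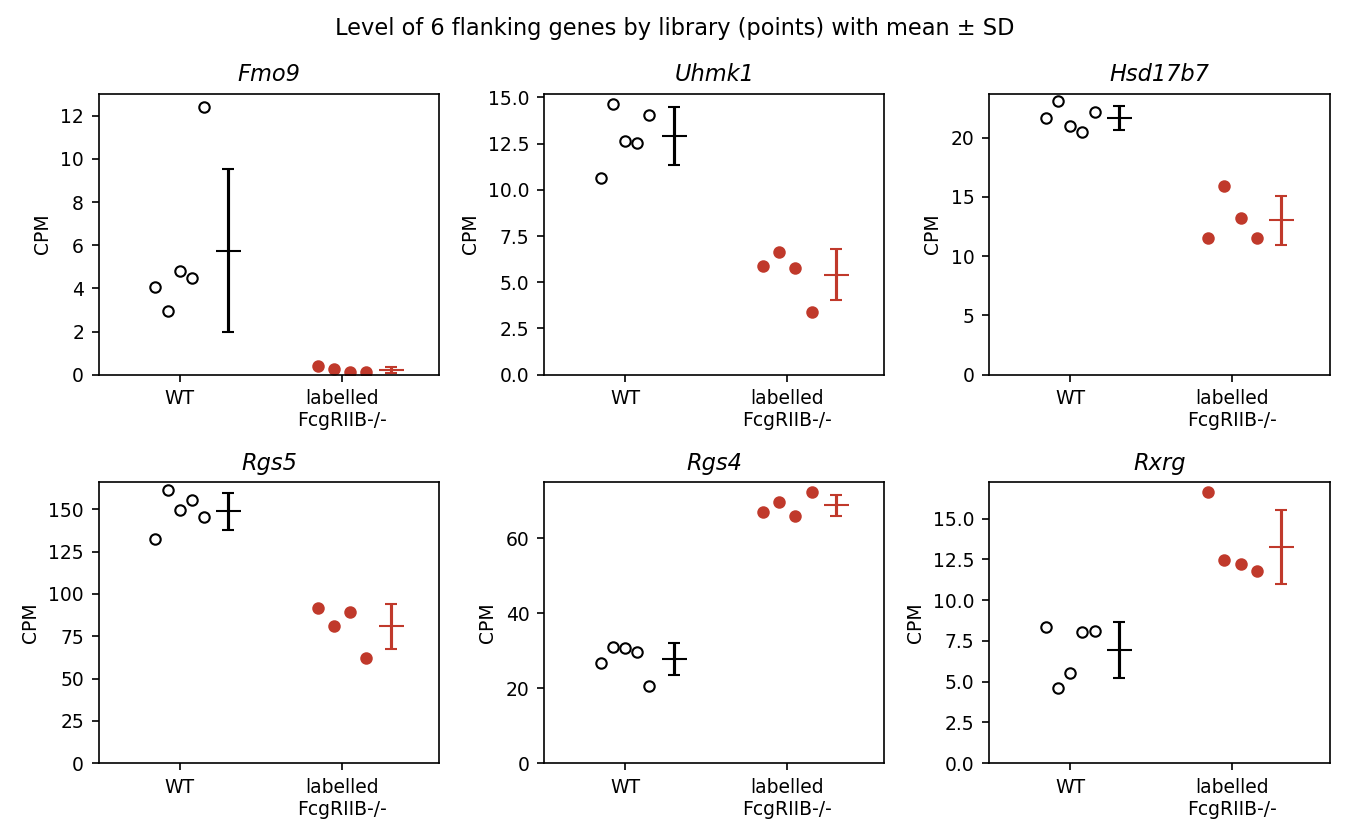
CPM of 6 flanking genes in each library, with open points for the 5 WT mice, filled points for the 4 mice labelled FcγRIIB-/-, and a horizontal mark with a bar for the mean ± SD of each group, on axes that start at 0. In all 6 genes the groups are apart, with Rgs4 at 27.7 and 68.8 CPM and Rgs5 at 149 and 80.9 CPM on average, and Fmo9 has 1 WT library at 12.4 CPM above the rest.

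Of the 6 metabolic enzymes, 1 rose and 2 fell. Fmo9, a member of the flavin-containing monooxygenase family, had the largest difference of any flanking gene and rested on few reads under the label. Only through its WT libraries did it have enough reads to be tested, which limits its test and fold change. Its reads numbered 112, 74, 125, 122 and 318 in WT, and 11, 6, 3 and 2 under the label. In CPM this was 4.06, 2.97, 4.82, 4.48 and 12.4 in WT and 0.385, 0.277, 0.127 and 0.101 under the label. Every labelled library was far below the lowest WT library, and the highest value was that of WT replicate 5. The log2 fold change was -4.60, with a 95% confidence interval of -5.83 to -3.38 (edgeR adjusted p = 0.000475), and it lay between -5.04 and -4.09 when 1 library at a time was left out.

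WT replicate 5 was also the highest library for the summed keratinized epithelium markers, which ran from 3921 to 10635 CPM in WT and from 4699 to 5882 CPM under the label. Of 11 tested markers 9 were lower and 1 higher, and the marker Ivl was near 0. Single markers moved more than the sum, with a median log2 fold change of -3.42 and a range of -7.47 to 0.39. WT replicate 5 was the highest for the myeloid markers too. The part of these cells in the Fmo9 result was not tested.

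The promoter of Fmo9 is shown because this gene changed most. It covers chr1:166681846-166682095 (minus strand), with the same source and the same meaning of the capitals as for Rgs4 and Rgs5.
Fmo9: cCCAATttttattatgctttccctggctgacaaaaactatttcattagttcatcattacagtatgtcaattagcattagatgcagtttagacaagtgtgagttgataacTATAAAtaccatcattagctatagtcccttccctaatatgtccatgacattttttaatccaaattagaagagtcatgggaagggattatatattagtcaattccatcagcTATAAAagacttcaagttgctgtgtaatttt
TATAAA stands at positions -141 and -31, and CCAAT at position -249. At a GC content of 32.0% this window differs from those of Rgs4 and Rgs5, which are both at 53.6%.

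Hsd17b7, a 3-ketosteroid reductase of cholesterol synthesis that can also form oestradiol, was at 21.6, 23.1, 21.0, 20.5 and 22.2 CPM in WT. It was at 11.5, 15.9, 13.2 and 11.6 CPM under the label. All labelled libraries were below all WT libraries, with a log2 fold change of -0.73 and an SE of 0.10 (edgeR adjusted p = 0.000991). Of 18 other genes of cholesterol synthesis, at other places in the genome, 0 were higher and 7 were lower, with a median log2 fold change of -0.25. Idi1, the isomerase of isopentenyl diphosphate, was at -1.02 and Dhcr7, the last enzyme of the pathway to cholesterol, was at -0.55.

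Aldh9a1, an aldehyde dehydrogenase of carnitine synthesis, rose from 46.4 ± 1.70 CPM (SD, n = 5) to 52.4 ± 2.89 CPM (SD, n = 4), a log2 fold change of 0.17 (edgeR adjusted p = 0.0447). That call was lost without WT replicate 1, 2, 3 or 4 and without replicate 2 or 3 of the labelled libraries, at adjusted p between 0.0621 and 0.106. Uck2, a uridine-cytidine kinase of pyrimidine salvage, had a log2 fold change of 0.38 (adjusted p = 0.0628), and Mgst3, a microsomal glutathione transferase, had 0.47 (adjusted p = 0.0716), both with overlapping groups. Uck2 passed the test without WT replicate 2 (adjusted p = 0.0116) or replicate 1 of the labelled libraries (adjusted p = 0.0397), Mgst3 without WT replicate 5 (adjusted p = 0.0350) or replicate 3 of the labelled libraries (adjusted p = 0.0325), and both passed in DESeq2. Nit1, an amidase that removes deaminated glutathione, was at 21.9 ± 0.916 CPM (SD, n = 5) and 22.6 ± 1.45 CPM (SD, n = 4), with a 95% confidence interval of -0.10 to 0.20 for its log2 fold change. It shares 43.3% of its exonic bases with Dedd on the other strand.

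Of 7 genes of the endoplasmic reticulum, Golgi and protein folding, 2 rose and 2 fell. Copa, the alpha subunit of the COPI coat that returns proteins from the Golgi to the endoplasmic reticulum, was at 372, 395, 390, 383 and 410 CPM in WT, and at 275, 301, 268 and 285 CPM under the label. The highest labelled library was below the lowest WT library, and the log2 fold change was -0.47 with an SE of 0.07 (edgeR adjusted p = 0.00118). Of 8 other COPI subunits, 1 was higher and 1 lower, with a median log2 fold change of -0.00084. Copg2, the paralogue of the gamma subunit, was at -0.41 and Cope, the epsilon subunit, at 0.26.

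Ncstn encodes nicastrin, the subunit of gamma-secretase that receives substrates, and starts beside Copa on the opposite strand, with 4.91% of its exonic bases shared. It was at 108, 114, 101, 99.3 and 105 CPM in WT, and at 77.9, 88.7, 66.1 and 97.2 CPM under the label. The groups were apart by a narrow margin, with a log2 fold change of -0.36 (edgeR adjusted p = 0.0227). The call was lost without WT replicate 1, WT replicate 2 or replicate 1 of the labelled libraries, at adjusted p between 0.0524 and 0.0610. Of 6 other gamma-secretase genes, 1 was higher and 2 were lower, with Aph1c at a log2 fold change of -0.70 and Psenen at 0.38, both of them subunits of the complex.

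Pfdn2, a subunit of prefoldin, which hands unfolded actin and tubulin to a chaperonin, was at 30.3, 24.3, 30.4, 28.4 and 27.2 CPM in WT, and at 36.4, 37.7, 45.6 and 42.3 CPM under the label. Every labelled library was above every WT library, with a log2 fold change of 0.53 and an SE of 0.09 (edgeR adjusted p = 0.00232). Of the 5 other prefoldin genes, which lie elsewhere, 3 were higher and 0 were lower, with a median log2 fold change of 0.30, and Pfdn6 was at 0.55 and Pfdn1 at 0.30. Pfdn2 shares 27.6% of its exonic bases with Klhdc9 on the other strand.

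Tmco1, a calcium channel of the endoplasmic reticulum, rose from 61.7 ± 3.45 CPM (SD, n = 5) to 71.2 ± 6.14 CPM (SD, n = 4), a log2 fold change of 0.21 (edgeR adjusted p = 0.0444). Its call was lost without WT replicate 1, 3 or 5 and without replicate 2 or 3 of the labelled libraries, at adjusted p between 0.0634 and 0.105. Atf6, the listed gene next to Dusp12, encodes a membrane-bound transcription factor that is released when unfolded proteins collect in the endoplasmic reticulum. It was at 75.8, 85.6, 81.5, 76.6 and 88.8 CPM in WT and at 69.7, 71.5, 78.3 and 60.3 CPM under the label, with overlapping groups and a log2 fold change of -0.22 (edgeR adjusted p = 0.0578). Without replicate 3 of the labelled libraries, Atf6 passed at -0.28 (adjusted p = 0.0301). Of 17 other genes of the response to unfolded proteins, 9 were higher and 1 was lower. Hspa5, the main chaperone of that compartment, was at a log2 fold change of 0.88 and Creld2, a secreted protein induced with it, at 0.83. Both had overlapping groups. In WT Hspa5 was at 541 ± 38.2 CPM and Creld2 at 35.1 ± 4.96 CPM (SD, n = 5). Under the label they were more spread, at 997 ± 484 CPM and 62.2 ± 21.2 CPM (SD, n = 4). Of these 17 genes, 5 had groups that did not overlap.

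Uap1, which makes UDP-N-acetylglucosamine, was at 56.9 ± 2.52 CPM (SD, n = 5) and 48.4 ± 7.81 CPM (SD, n = 4) with a log2 fold change of -0.23 (edgeR adjusted p = 0.0844). Leaving out replicate 3 of the labelled libraries, the only one of that group above the WT range and not below it, gave -0.35 (adjusted p = 0.0055). B4galt3, a galactosyltransferase of the Golgi, was at 30.3 ± 3.72 CPM (SD, n = 5) and 30.6 ± 2.43 CPM (SD, n = 4), with a 95% confidence interval of -0.20 to 0.23 for the log2 fold change.

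The 3 genes of ubiquitin and UFM1 conjugation did not pass the test. Ufc1, the enzyme that conjugates the ubiquitin-like modifier UFM1, was at 66.5 ± 3.73 CPM (SD, n = 5) in WT and 66.6 ± 10.2 CPM (SD, n = 4) under the label, with a 95% confidence interval of -0.21 to 0.22 for its log2 fold change. Usp21, a deubiquitinating enzyme, was at a log2 fold change of 0.21 (edgeR adjusted p = 0.117). Dcaf8, a substrate receptor of a cullin ubiquitin ligase, was at -0.10 (adjusted p = 0.227). Of 7 other genes of the UFM1 pathway, 4 were higher and 0 lower, with Ddrgk1, an adaptor of its ligase, at 0.36.

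Tomm40l, a relative of the import pore of the mitochondrial outer membrane, rose from 37.3 ± 2.35 CPM (SD, n = 5) to 44.5 ± 2.33 CPM (SD, n = 4), a log2 fold change of 0.26 (edgeR adjusted p = 0.0148). It shares 64.3% of its exonic bases with Nr1i3 on the other strand, and without a stated strand setting the reads of these genes cannot be told apart. Pex19, the receptor that brings membrane proteins to peroxisomes, was at 75.6 ± 2.51 CPM (SD, n = 5) and 79.9 ± 2.87 CPM (SD, n = 4), and did not pass, with a 95% confidence interval of -0.04 to 0.19 for its log2 fold change. Of 14 other peroxin genes, 2 were higher and 0 lower, a share of 14.3% higher, with Pex6, an ATPase of the export machinery, at 0.44 and Pex10, a ubiquitin ligase of the peroxisomal membrane, at 0.39.

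Of 5 tested genes of transcription and chromatin, 1 rose and 1 fell. Rxrg, the gamma form of the retinoid X receptor, was at 8.33, 4.61, 5.55, 8.04 and 8.08 CPM in WT, and at 16.6, 12.4, 12.2 and 11.8 CPM under the label. All labelled libraries were above all WT libraries, with a log2 fold change of 0.94 and an SE of 0.19 (edgeR adjusted p = 0.00462). Skeletal muscle is among the tissues that express Rxrg. The summed skeletal muscle markers were at 21101, 9006, 14591, 18400 and 17891 CPM in WT and at 38422, 22137, 23197 and 36388 CPM under the label. The lowest and the highest library were the same for Rxrg and for these markers, WT replicate 2 and replicate 1 of the labelled group. Among the other labelled libraries the order was reversed, and the one at 36388 CPM for the markers had the lowest Rxrg of its group, 11.8 CPM. WT replicate 1 was the highest WT library for both. Its markers, at 21101 CPM, were close to the labelled library at 22137 CPM, with Rxrg at 8.33 and 12.4 CPM. The part of muscle in the Rxrg result was not tested.

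A promoter of Rxrg is shown because this gene had the second rise in size after Rgs4. RefSeq gives this gene 2 starts, and the window is that before the first, chr1:167598112-167598361 (plus strand), with source and capitals as before.
Rxrg: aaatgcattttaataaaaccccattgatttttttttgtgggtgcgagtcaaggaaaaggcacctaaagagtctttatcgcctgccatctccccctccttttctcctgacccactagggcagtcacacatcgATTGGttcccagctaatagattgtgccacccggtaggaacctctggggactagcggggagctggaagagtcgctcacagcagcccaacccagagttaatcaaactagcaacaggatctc
CCAAT stands on the other strand at position -119, and none of the other motifs was found in this window. The window before the other start, chr1:167618015-167618264, held none of the 5 motifs.

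Pogk, a KRAB-domain protein derived from a pogo transposase, was at 68.0, 66.6, 68.0, 64.1 and 67.9 CPM in WT, and at 56.4, 55.2, 45.3 and 59.1 CPM under the label. The groups did not overlap, with a log2 fold change of -0.31 (edgeR adjusted p = 0.0113). Its convergent neighbour Tada1, a subunit of the SAGA histone acetyltransferase, was at 25.6 ± 1.20 CPM (SD, n = 5) and 25.1 ± 1.74 CPM (SD, n = 4), and 25.6% of its exonic bases overlap Pogk on the other strand. Of 18 other SAGA genes, 5 were higher and 2 lower, with Sgf29, which reads methylated histone H3, at 0.46 and Taf12, a subunit with a histone fold, at 0.41. Usf1, which binds the E-box CACGTG, had a 95% confidence interval of -0.10 to 0.25 for its log2 fold change, and a stretch of 899 bases is 98.2% identical to Gm12345. Lmx1a, a homeobox gene of dopaminergic neurons, was below 1 CPM in every library, with an interval of -0.54 to 0.64. Nhlh1, a neuronal helix-loop-helix factor, had at most 2 counts in any library and was not tested.

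Of 5 tested genes of membrane, matrix and channels, 2 rose and 1 fell. Olfml2b, a secreted olfactomedin-domain protein of the extracellular matrix, was at 224, 259, 232, 236 and 292 CPM in WT, and at 164, 165, 158 and 127 CPM under the label. No labelled library reached the lowest WT library, and the log2 fold change was -0.69 with an SE of 0.11 (edgeR adjusted p = 0.00134). Igsf8, an immunoglobulin-domain partner of tetraspanins, was at 49.8, 46.0, 54.3, 48.7 and 50.1 CPM in WT and at 61.7, 70.3, 67.7 and 68.3 CPM under the label. Here every labelled library was the higher, with a log2 fold change of 0.43 and an SE of 0.06 (edgeR adjusted p = 0.00125).

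F11r, the junctional adhesion molecule A of epithelia and endothelia, is also found on platelets and leukocytes, although the list counts it as not immune. It was at 86.7, 90.2, 103, 88.5 and 66.4 CPM in WT and at 107, 105, 123 and 105 CPM under the label, with a log2 fold change of 0.34 (edgeR adjusted p = 0.0373). The platelet markers summed to 272 to 360 CPM in WT and 79.9 to 136 CPM under the label, and their part in the F11r result was not tested. The call was lost without any 1 of the 4 labelled libraries, at adjusted p between 0.0553 and 0.0981.

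Vangl2, a core protein of planar cell polarity, was at 22.2 ± 3.47 CPM (SD, n = 5) and 20.9 ± 3.78 CPM (SD, n = 4), with a 95% confidence interval of -0.40 to 0.23 for its log2 fold change. Of 11 other planar cell polarity genes, 3 were higher and 4 lower, with Celsr3 at -2.29 and Celsr1 at 0.75, both atypical cadherins. Celsr3 rested on few reads, at 1.04 ± 0.403 CPM (SD, n = 5) and 0.221 ± 0.195 CPM (SD, n = 4), and its groups overlapped. Kcnj10, an inward rectifier potassium channel of glia, was at a log2 fold change of -0.53 with an SE of 0.34 (edgeR adjusted p = 0.252) and overlapping groups. Kcnj9, a G protein-gated potassium channel beside it, had 6 to 12 counts in WT and 1 to 5 counts under the label. Its groups did not overlap, but it was below the filter on low counts, and it was called lower by DESeq2 and by edgeR without a filter.

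The other 3 genes have less defined roles. Pcp4l1, a small relative of a calmodulin-binding Purkinje cell protein, fell from 43.8 ± 5.11 CPM (SD, n = 5) to 31.6 ± 6.96 CPM (SD, n = 4), a log2 fold change of -0.47 (edgeR adjusted p = 0.0275), and was the 1 called gene whose groups overlapped. Klhdc9, a kelch-domain protein, fell from 1.27 ± 0.166 CPM (SD, n = 5) to 0.679 ± 0.282 CPM (SD, n = 4), a log2 fold change of -0.90 (edgeR adjusted p = 0.0362). The Pcp4l1 call was lost without WT replicate 1 or 4 and without replicate 2 or 3 of the labelled libraries, at adjusted p between 0.0584 and 0.0738. The Klhdc9 call was lost without WT replicate 1, 2, 3 or 5 and without replicate 2 or 3 of the labelled libraries, at adjusted p between 0.0558 and 0.0910. Cfap126, a gene of motile cilia, was at -0.37 (adjusted p = 0.286).

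Position was compared next. On the centromeric side of Fcgr2b, 5 of 19 tested flanking genes were higher and 8 lower, or 68.4% called, and on the telomeric side 6 of 20 were higher and 4 lower. By distance, 9 of 16 genes within 500 kb were called, 3 of 4 between 500 and 1000 kb, 6 of 10 between 1000 and 2000 kb and 5 of 9 between 2000 and 5000 kb. Over all tested genes 33.3% were called, 14.0% higher and 19.3% lower. These groups are small, and a trend with distance was not tested. From Rgs5 to Dusp12, a stretch singled out after its values were seen, 2 of 10 genes were higher and 6 lower, with a median log2 fold change of -0.59. The 5 genes Hsd17b7, Ddr2, Uhmk1, Nos1ap and Olfml2b in it, with Uap1 alone of the listed genes between them not passing, all fell. Between Cfap126 and F11r, on the other side, genes that did not pass stood next to genes that did, such as Nit1 between Dedd and Pfdn2. Nit1 and Dedd overlap on opposite strands, so without a stated strand setting their counts may not be separate.

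**Figure D3:**
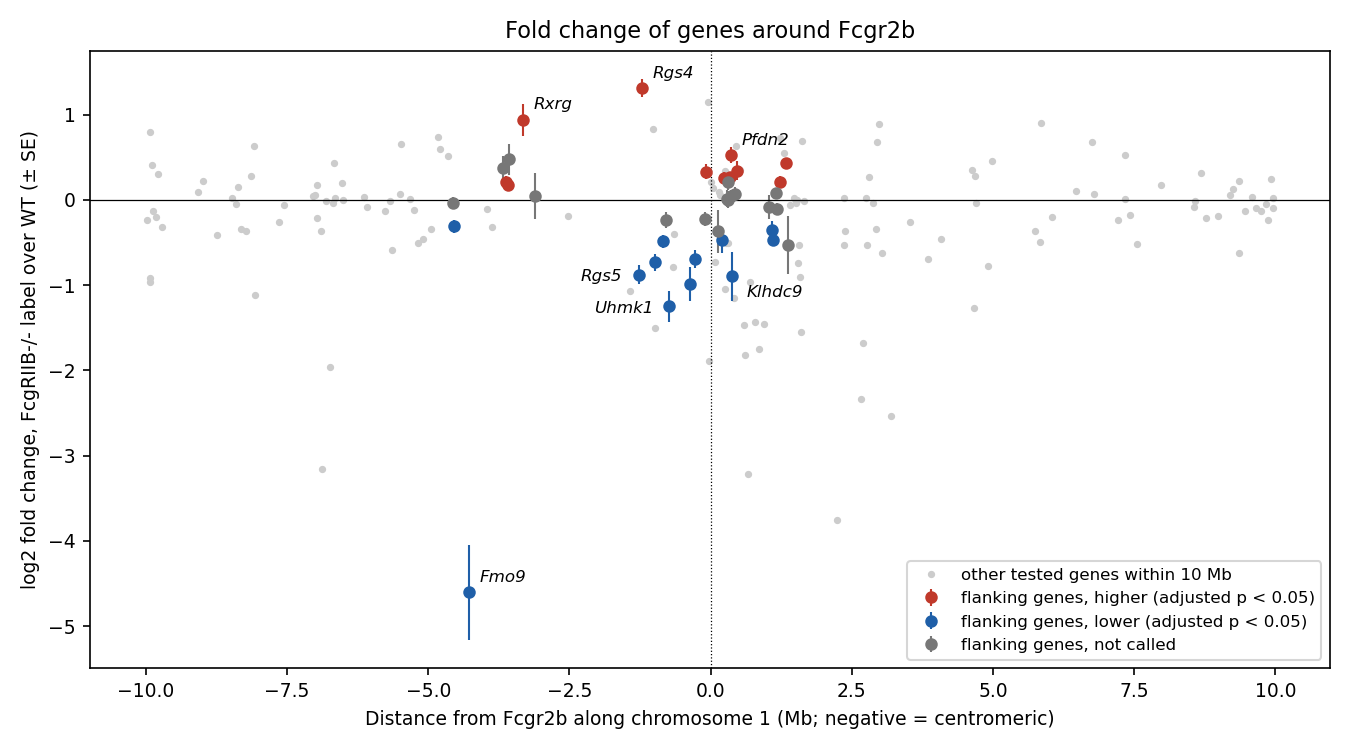
log2 fold change of the 39 tested flanking genes, coloured by call with bars for the SE, and of the 147 other tested genes within 10 Mb in grey, against distance from Fcgr2b in Mb. Most flanking genes lie between -1 and 1, Fmo9 at -4.60 and Rgs4 at 1.31 stand apart, and 6 of the 12 lower genes lie just centromeric of Fcgr2b.

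The same stretch of chromosome holds many immune genes. Of the other 211 genes within 10 Mb of Fcgr2b, 147 were tested, and 21 were higher and 43 lower, or 43.5%. On the list of immune and blood cell genes there, 20 of 35 were called, 3 higher and 17 lower, with a median log2 fold change of -0.73, and the myeloid and erythroid levels given above fell with them. Off that list, 18 were higher and 26 lower of 112, or 39.3%, with a median of -0.04. Elsewhere on chromosome 1, more than 10 Mb away, 35.2% of 761 genes were called. Among the largest falls of the other genes of the interval were those of Slamf7 (log2 fold change -3.22) and Ifi209 (-2.34), both genes of blood cells, and of F5 (-1.96), coagulation factor V, and none of these other genes rose by a log2 fold change of 1 or more without overlap between groups. The flanking genes are a list made by hand, and these shares are given as counts without a test between them.

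Partner genes give a second background for the flanking genes, which is not fully separate from the first. Rgs7 and Psen2 on these lists lie 4.08 and 9.25 Mb from Fcgr2b and are also counted among the other interval genes. Of 14 other RGS genes, 2 were higher and 4 lower, with Rgs18, an RGS protein of platelets and megakaryocytes, at -2.10 and Rgs14, an RGS protein that also binds Rap and Ras, at -1.16. The median log2 fold change of these RGS genes was 0.00, and the calls of all 10 partner lists are counts with no test between lists.

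**Figure D4:**
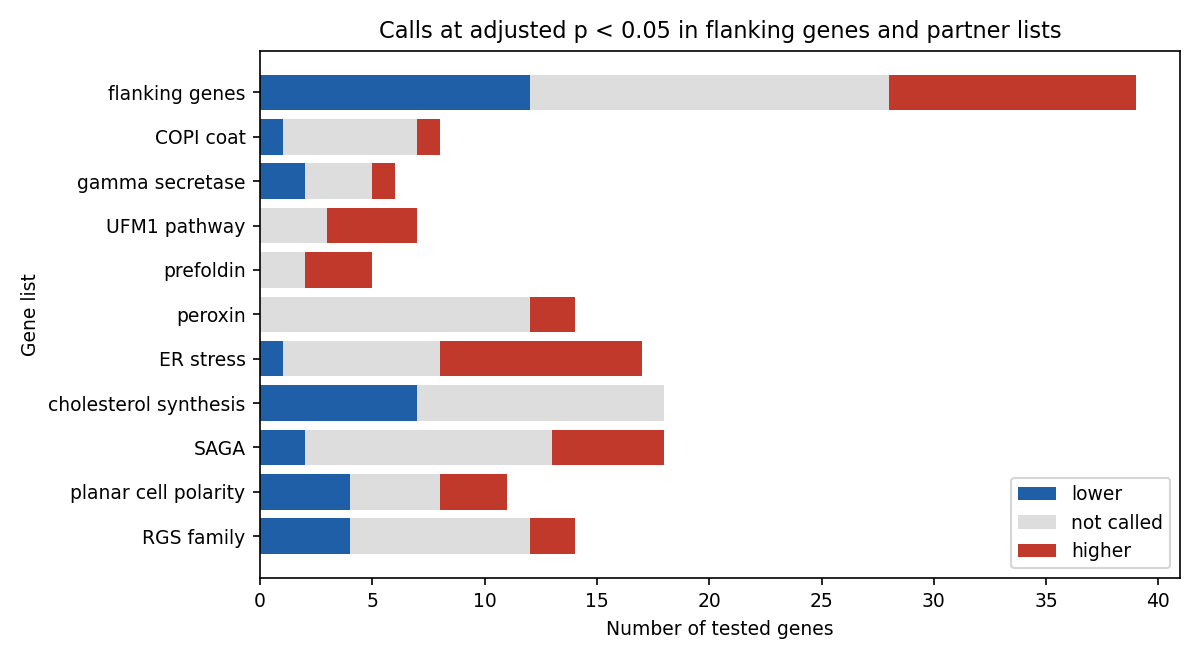
Number of tested genes that were lower, not called or higher at an adjusted p under 0.05 in the 39 flanking genes and in 10 lists of genes that work with them. The flanking genes split into 12 lower and 11 higher, the cholesterol synthesis list into 7 lower and 0 higher of 18, and the list of the response to unfolded proteins (ER stress) into 1 lower and 9 higher of 17.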

How the data were processed

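Mandible RNA of 5 WT mice and 4 mice labelled FcγRIIB-/- was examined, with groups and replicate numbers taken from the labels. The authors deposited raw counts per gene from featureCounts, made from reads trimmed with Trim Galore and aligned by HISAT 02.1.0 to mm10. The annotation, the strand setting and the handling of reads that match several genes are not given in the sources used here. One table column matched no sample label (1 column) and was not used, and 1030 rows without a gene symbol were kept under their identifiers. A genotype test by DESeq2 was the authors' own and none of its values was used.

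Counts were filtered with filterByExpr (minimum count 10), scaled by TMM and compared by the quasi-likelihood test of edgeR 4.0.16 in R 4.3.3, with no covariate and Benjamini-Hochberg adjustment over 16329 genes at 0.05. The SE was recovered from each log2 fold change and its F statistic, and log2 CPM used a prior count of 2. The test was checked on simulated counts. Alternatives were other scalings and filters, DESeq2 1.42.0, a replicate block, robust fitting, a fold limit and leaving out each library. Replicate numbers did not pair the mice, with correlations of 0.0969, 0.0276, -0.114 and -0.0739 between equal numbers. No pair of libraries was nearly identical (0 pairs). The p-values set the difference between the groups against the spread between these mice.

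All listed genes are named. Other interval genes are named if called without overlap at an absolute log2 fold change of at least 1, up to 5 per direction, and partner lists by up to 2 called genes. A few genes that qualify are not reported here. The flanking genes and all lists were chosen with earlier results of these data known. Promoters and gene positions are from RefSeq (GRCm38.p6) and exon overlaps from GENCODE transcripts. Promoters were found for 37 of the 41 genes.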

Additional observations from a re-analysis of the deposited data

Results flagged for a closer look

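In a group of 4 or 5 mice, a library was singled out where its gap to the nearest other library was most of the group's range by Dixon's criterion. Of 80 groups examined, 5 were singled out, and chance does so for about 1 in 20. All 5 are libraries labelled FcγRIIB-/-. Fcgr2b was at 32.1 CPM in replicate 4, with the others at 26.0 to 26.6 CPM. Olfml2b was at 127 CPM in replicate 4, with the others at 158 to 165 CPM. Nit1 was at 24.8 CPM in replicate 4, with the others at 21.7 to 22.1 CPM. Rxrg was at 16.6 CPM in replicate 1, with the others at 11.8 to 12.4 CPM, and F11r was at 123 CPM in replicate 3, with the others at 105 to 107 CPM. Without these libraries Olfml2b and Rxrg still passed the test, the call of F11r was lost (edgeR adjusted p = 0.0981), and Fcgr2b and Nit1 did not pass with or without them.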

How the results depend on the processing

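Of the values for single flanking genes, 578 kept their direction and side of the threshold over the 17 alternative fits, 52 fell below it, 12 rose above it and 19 changed sign. The 12 genes with an adjusted p under 0.05 in each of these fits were Igsf8, Pfdn2, Rgs4 and Rxrg (higher) and Copa, Ddr2, Hsd17b7, Nos1ap, Olfml2b, Pogk, Rgs5 and Uhmk1 (lower). Fmo9 passed in each fit that kept it and was removed by a minimum of 10 counts in every library. Scaling by total counts alone shifted the median of all genes by -0.08 and gave 4 flanking genes higher and 14 lower (1309 and 3781 over all genes). There the calls of Aldh9a1, Dedd, Dusp12, F11r, Pea15a, Tmco1 and Tomm40l were lost, and Atf6 and Uap1 were called lower. A fold limit of 0.5 left 3 higher and 7 lower (874 and 1971 over all genes), and of those 12 genes Igsf8, Copa, Ddr2 and Pogk did not reach it. With the replicate block 9 were higher and 11 lower (1594 and 2410 over all genes), although replicate numbers do not pair these mice. Leaving out 1 library gave 7 to 11 higher, the lowest without replicate 2 of the labelled libraries, 9 to 12 lower, and a log2 fold change of Fcgr2b of 0.13 to 0.46. All sign changes were in genes that never passed in those fits. Under total counts alone they were Lmx1a (-0.0217), B4galt3 (-0.0651), Ufc1 (-0.0775), Nit1 (-0.0300) and Usf1 (-0.00485). Ufc1 was at -0.00341 with no filter, and B4galt3 and Ufc1 were at -0.0465 and -0.0325 with the replicate block. Over the fits without 1 library, genes that changed sign ran from -0.0609 to 0.0145 (Tada1), from -0.0383 to 0.216 (Lmx1a), from -0.0268 to 0.0756 (B4galt3), from -0.0665 to 0.100 (Ufc1) and from -0.217 to 0.0116 (Vangl2). The causes of these shifts were not tested. Few reads limit Fmo9, Klhdc9, Kcnj9, Nhlh1 and Lmx1a, and intervals cover the spread between these mice only.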
